A study of Mus musculus with 13 samples.

Results

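Genes of neutrophils and of monocytes and macrophages were followed through arrays of purified CD8+ T cells. The 10 genes were S100a8, S100a9, Camp, Ngp, Ltf and Lcn2 for neutrophils, and Lyz1, Cybb, Mpeg1 and Csf1r for monocytes and macrophages. They were chosen by name, and all probe sets that the platform annotation gives to these symbols were used, which came to 10 of 18193 named genes and 16 of the 45101 probe sets of the table, 6 for the neutrophil and 10 for the monocyte genes. Each neutrophil gene and Mpeg1 had 1 probe set, and Lyz1, Cybb and Csf1r had 3 each. No member was left out for a low value.

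The study compared CD8+ T cells of BATF-/- mice with those of wild-type mice, both naive and after stimulation. The 13 arrays formed 4 groups, BATF-/- naive (3 arrays), wild-type naive (2), BATF-/- day 3 (4) and wild-type day 3 (4). All mice carried the P14 T cell receptor transgene on the C57Bl/6 strain background, and all cells were purified by magnetic negative selection, in which marked cells of other types are held back and CD8+ T cells pass through untouched. Day 3 cells had been kept for 3 days on plates coated with antibodies to CD3 and CD28, with 100 U/ml IL-2, while naive cells were taken on day 0. The labels give neither the age or sex of the mice nor whether the arrays of a group came from separate animals, so p-values measure the spread between arrays.

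Neutrophils and monocytes arise from a shared progenitor in bone marrow and are not part of the T cell lineage. S100a8 and S100a9 code for the subunits of calprotectin, the most abundant protein of the neutrophil cytosol. Camp (cathelicidin), Ngp (neutrophilic granule protein), Ltf (lactoferrin) and Lcn2 (lipocalin 2) code for proteins of the secondary granules, which neutrophil precursors fill late in their maturation. Lyz1 is one of a pair of mouse lysozyme genes. Cybb codes for the membrane subunit of the phagocyte NADPH oxidase, Mpeg1 for perforin 2, a pore-forming protein of phagocytes, and Csf1r for the receptor that monocytes and macrophages need for survival. B cells and dendritic cells also use Cybb and Mpeg1. In a bulk array a lower value can mean fewer cells of a type or less RNA per cell, and these cannot be told apart.

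The promoters of members whose arrays moved together are shown because several share short motifs of myeloid factors. RefSeq promoter windows of GRCm38.p6, 300 bases each, were available here for 9 of the 10 genes, and Csf1r's was not used here. A C/EBP motif, TTGCNNAA on either strand, was found in 5 of the 9 (Lcn2, S100a9, Ngp, Ltf and Lyz1) and in 10.8% of all 32851 windows. A PU.1 motif, AGGAAGT on either strand, was found in 2 of the 9 (S100a8 and Lyz1) and in 9.35% of all windows. In these genes no match of one motif overlapped a match of the other. Both motifs were picked after the sequences had been looked at, and a match is a description of letters, not of a bound factor. The stretches below run from 200 bases before the start of the gene, and capitals mark the PU.1 motif in S100a8 and the C/EBP motif in Ngp and Ltf.
S100a8, chr3:90668871-90669020, plus strand: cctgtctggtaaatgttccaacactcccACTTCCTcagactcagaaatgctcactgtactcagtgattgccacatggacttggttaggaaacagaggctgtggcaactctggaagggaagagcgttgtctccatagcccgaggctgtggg
Ngp, chr9:110419608-110419757, plus strand: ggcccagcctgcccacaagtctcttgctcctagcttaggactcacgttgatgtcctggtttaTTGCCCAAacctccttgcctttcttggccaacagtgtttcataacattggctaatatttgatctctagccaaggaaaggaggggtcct
Ltf, chr9:111019092-111019291, plus strand: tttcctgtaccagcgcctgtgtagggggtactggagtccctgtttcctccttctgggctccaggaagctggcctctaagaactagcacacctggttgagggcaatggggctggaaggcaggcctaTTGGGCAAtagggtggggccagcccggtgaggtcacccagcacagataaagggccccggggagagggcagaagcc

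Lyz1 has a close copy, Lyz2, which lies next to it on chromosome 10 with 0 protein-coding genes between them. The 150 bases before the start of each gene are shown because the genes are close copies, and capitals mark the bases at which the sequences differ. They were identical at 129 of 150 positions (86.0%), and at 66 of the 70 positions nearest the start (94.3%). Over the 250 bases before the start, compared without gaps, they were identical at 152 positions (60.8%). Both hold the PU.1 motif at the same distance from the start, read on the opposite strand as acttcct.
Lyz1, chr10:117292869-117293018, minus strand: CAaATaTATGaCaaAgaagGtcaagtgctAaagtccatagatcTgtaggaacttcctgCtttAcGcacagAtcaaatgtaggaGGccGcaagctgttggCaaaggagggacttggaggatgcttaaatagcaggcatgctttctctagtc
Lyz2, chr10:117282273-117282422, minus strand: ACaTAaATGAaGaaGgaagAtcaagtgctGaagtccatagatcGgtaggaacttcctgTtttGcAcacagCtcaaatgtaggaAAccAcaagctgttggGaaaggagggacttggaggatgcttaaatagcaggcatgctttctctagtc
S100a8 and S100a9 are likewise direct neighbours on chromosome 3 with 0 protein-coding genes between them, and Camp, Ngp and Ltf share chromosome 9, with 8 genes between Camp and Ngp and 20 between Ngp and Ltf.

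Of the series as a whole, median intensities lay between 31.4 and 32.4 in the 13 arrays, so the arrays were on a common scale. Batf itself was lower in every BATF-/- array (log2 5.56 to 6.77) than in every wild-type array (8.63 to 9.36). Defining genes of the labelled cell type were bright in all 13 arrays, with a mean log2 intensity of 10 measured CD8 T cell genes between 11.40 and 11.95. Values below a mean log2 intensity of 4.35, the limit of the dimmest 40% of probe sets, are called dim, and a fold against a dim group is given as a lower bound.

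The levels of the neutrophil genes in naive arrays were set apart by a single BATF-/- array, replicate 1. S100a8 had log2 intensities of 10.64, 5.19 and 6.67 in BATF-/- naive replicates 1, 2 and 3, against 6.90 and 5.82 in the wild-type naive arrays. Replicate 1 stood above all others, while replicates 2 and 3 lay on either side of a wild-type array, so the genotypes overlapped. Its partner S100a9 had 11.15, 5.42 and 7.04 in BATF-/- naive arrays, against 7.70 and 6.61 in wild-type naive arrays. The order of the 5 arrays was the same for both calprotectin genes, with BATF-/- replicate 1 first and BATF-/- replicate 2 last. Replicate 1 exceeded the mean of the other 4 naive arrays by 4.50 log2 for S100a8 (22.6-fold) and 4.46 for S100a9 (22.0-fold), which were ranks 6 and 7 among all 45037 probe sets tested.

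The secondary granule genes were also highest in replicate 1. Ngp had log2 intensities of 8.70, 4.77 and 5.93 in BATF-/- naive arrays, against 6.15 and 5.23 in wild-type naive arrays. Ltf had 7.50, 4.51 and 4.89 in BATF-/- naive arrays, against 4.90 and 4.47 in wild-type naive arrays. Again replicate 1 was far above the rest, and the other BATF-/- arrays overlapped with wild type.

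Camp, the antimicrobial peptide gene, had log2 intensities of 7.60, 4.86 and 6.13 in BATF-/- naive arrays, against 5.82 and 5.40 in wild-type naive arrays. Lcn2, whose product captures bacterial iron carriers, had 7.16, 3.06 and 3.40 in BATF-/- naive arrays, against 3.58 and 2.97 in wild-type naive arrays. Lcn2 was thus above the dim limit in replicate 1 alone of the 5 naive arrays. The excess of replicate 1 over the mean of the other 4 was 3.91 log2 for Lcn2 (15.0-fold), 3.18 for Ngp (9.09-fold), 2.80 for Ltf (6.98-fold) and 2.05 for Camp (4.13-fold).

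**Figure D1:**
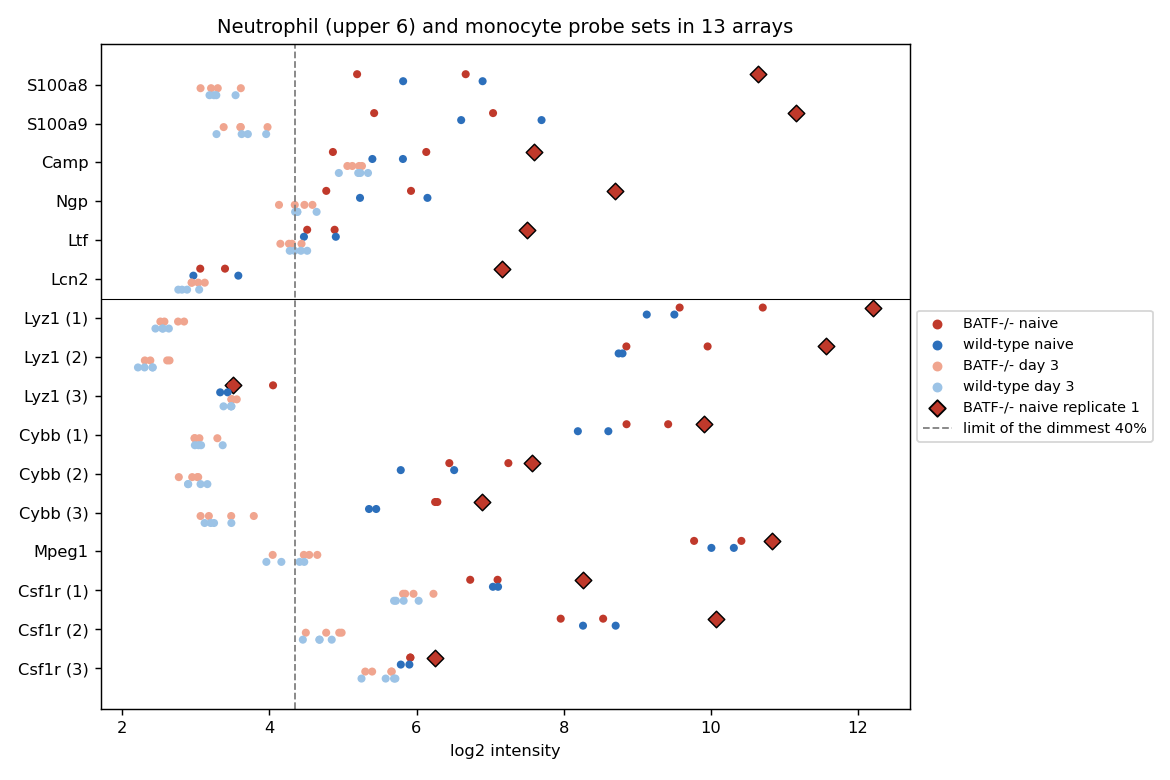
Log2 intensity of the 16 probe sets (rows) in the 13 arrays (points), coloured by group, with BATF-/- naive replicate 1 as a diamond and the limit of the dimmest 40% of probe sets as a dashed line; numbers in brackets tell the probe sets of a gene apart, in order of their mean over the 13 arrays from the highest down. The diamond is the highest naive value in 15 of the 16 rows, and for S100a8 it lies at 10.64, against 5.19 to 6.90 in the other naive arrays.

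Each monocyte and macrophage gene had a probe set far above the dim limit in every naive array. Lyz1, by its brightest probe set (1436996_x_at), had log2 intensities of 12.21, 9.58 and 10.71 in BATF-/- naive arrays, against 9.51 and 9.13 in wild-type naive arrays. All 3 BATF-/- arrays were above both wild-type arrays, the lowest of them, replicate 2, by little. The next probe set (1439426_x_at) had 11.57, 8.85 and 9.96 in BATF-/- naive arrays, against 8.75 and 8.80 in wild-type naive arrays, with the same separation.

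The third Lyz1 probe set (1450822_at) was dim in every one of the 13 arrays, between 3.33 and 4.05, and did not follow the other 2. The suffix x_at marks, in this array design, probe sets with probes that also match other transcripts, so the bright Lyz1 values may hold RNA of Lyz2. The Lyz2 probe set (1423547_at) had 11.61, 8.82 and 10.29 in BATF-/- naive arrays, against 8.52 and 8.68 in wild-type naive arrays. Its array order resembled that of the bright Lyz1 probe sets, and the shares of the copies in those values cannot be told apart.

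Cybb, by its brightest probe set (1436778_at), had log2 intensities of 9.90, 8.86 and 9.42 in BATF-/- naive arrays, against 8.61 and 8.19 in wild-type naive arrays. The probe set 1422978_at had 7.57, 6.45 and 7.25 in BATF-/- naive arrays, against 6.51 and 5.79 in wild-type naive arrays, and 1436779_at had 6.90, 6.25 and 6.28 in BATF-/- naive arrays, against 5.45 and 5.35 in wild-type naive arrays. The genotypes did not overlap for the first and the last of these, and for 1422978_at BATF-/- replicate 2 lay just below a wild-type array. The excess of replicate 1 over the mean of the other 4 naive arrays was 1.13, 1.08 and 1.06 log2 for the Cybb probe sets. For other subunits of the oxidase, which lymphocytes also use, it was 0.88 for Ncf1, 0.014 for Ncf4, -0.19 for Cyba and -0.44 for Rac2.

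Mpeg1 had log2 intensities of 10.83, 9.77 and 10.42 in BATF-/- naive arrays, against 10.01 and 10.31 in wild-type naive arrays. These arrays overlapped, and the spread of 0.53 (SD, n = 3) in BATF-/- arrays was larger than the distance between the group means. Csf1r, by the probe set that was brightest in naive arrays (1419872_at), had 10.07, 7.96 and 8.54 in BATF-/- naive arrays, against 8.71 and 8.26 in wild-type naive arrays. Replicate 1 was highest and replicate 2 lowest of the 5.

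The probe set 1419873_s_at gave Csf1r 8.26, 6.73 and 7.10 in BATF-/- naive arrays, against 7.04 and 7.11 in wild-type naive arrays, and 1423593_a_at gave 6.25, 5.91 and 5.92, against 5.90 and 5.79. The 3 Csf1r probe sets thus disagreed in the size of the excess of replicate 1, which was 1.27 and 0.37 log2 for these 2 and 1.70 for 1419872_at. Over all 13 arrays 1419873_s_at had the highest mean (6.41, against 6.26 for 1419872_at), and it stands for Csf1r where each gene has 1 probe set. Of the ligands of the receptor, Csf1 differed by 0.33 and Il34 by 0.048 between genotypes in naive preparations, and 0 of 2 passed the test.

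Over all 16 probe sets, BATF-/- replicate 1 was the highest naive array for 15 and BATF-/- replicate 3 for the dim Lyz1 probe set. The lowest array was BATF-/- replicate 2 for 7 probe sets, wild-type replicate 2 for 8 and wild-type replicate 1 for 1. How often BATF-/- replicate 1 was the highest or lowest naive array among all probe sets was not counted, here or for the lists below. BATF-/- replicate 1 lay at least 1 log2 above the highest other naive array for 10 of the 16 members, where 0.731% of all probe sets did, and at least 2 log2 above it for 5 of 16, where 0.109% did. This array was singled out after its values had been seen, so these counts describe it and carry no test. Between genotypes, all BATF-/- naive arrays lay above all wild-type naive arrays for 6 of 16 members, which were the 3 probe sets of Lyz1, 2 of Cybb and 1 of Csf1r, and 10.9% of all probe sets did so. The reverse order was seen for 0 of 16 members and for 14% of all probe sets.

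The test of BATF-/- against wild-type naive preparations asks whether myeloid RNA differed between the genotypes before stimulation. Of the 16 probe sets 1 was called, at an adjusted p below 0.05 over all 45037, which was a probe set of Cybb, while 0.739% of all probe sets were called. The call, 1436779_at, had a mean log2 intensity of 6.48 ± 0.36 (SD, n = 3) in BATF-/- and 5.40 ± 0.07 (SD, n = 2) in wild-type naive arrays, a difference of 1.07 ± 0.21 (SE, limma, adjusted p = 0.0365), or 2.11-fold. It was above wild type in 3 of 3 BATF-/- arrays, with differences of 0.87 to 1.19 when an array was left out. The call was lost without either wild-type naive array (adjusted p = 0.119 and 0.194), where the 1 array left is assumed to vary like the other groups, without BATF-/- naive replicate 1 or 3 (0.0566 and 0.0563), and without BATF-/- day 3 replicate 1 or any of the wild-type day 3 arrays (0.0514 to 0.0587). The other Cybb probe sets were at 0.99 ± 0.23 (adjusted p = 0.0705) and 0.94 ± 0.26 (adjusted p = 0.127).

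Of the 6 neutrophil genes 0 passed the test, with 0 at an unadjusted p below 0.05 as well. Of the 10 monocyte probe sets 1 passed, with 6 at an unadjusted p below 0.05. The share of all probe sets at that unadjusted level was not counted, so no excess is read from these 6. S100a8 was at 1.14 ± 1.02 (SE, adjusted p = 0.681) and S100a9 at 0.72 ± 1.07 (adjusted p = 0.831), the standard error being larger than the difference for S100a9 and close to it for S100a8. The granule genes lay between 0.59 for Camp and 1.27 for Lcn2. The bright Lyz1 probe sets were at 1.51 ± 0.48 (adjusted p = 0.176) and 1.35 ± 0.49 (adjusted p = 0.236), and the dim one at 0.30. Mpeg1 was at 0.18 ± 0.26 (adjusted p = 0.825), and the Csf1r probe sets at 0.37, 0.29 and 0.18.

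The sign of the neutrophil difference rested on BATF-/- naive replicate 1. With it, all 16 probe sets had a difference above 0, with a median of 0.86 for the neutrophil and 0.65 for the monocyte probe sets, where the median of all probe sets was -0.01. Without it, 8 of 16 were above 0, 1 of 6 neutrophil and 7 of 10 monocyte probe sets, and the medians were -0.23 and 0.51. S100a9 then stood at -0.92 (adjusted p = 0.379), S100a8 at -0.43 (adjusted p = 0.701) and Ngp at -0.34 (adjusted p = 0.710), and 0 of 16 were called, where 0.915% of all probe sets were. Lyz1 kept a positive difference of 0.82 (adjusted p = 0.182) and 0.63 (adjusted p = 0.285), and Mpeg1 stood at -0.07.

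BATF-/- naive replicate 2, the array with the lowest calprotectin values, acted in the other direction. Without it, 5 of 16 members were called, all monocyte probe sets and all higher in BATF-/-, and the share of all probe sets called was 3.6%, against 0.739% with it. These were both bright Lyz1 probe sets at 2.14 (adjusted p = 0.00506) and 1.99 (adjusted p = 0.00923) and the 3 of Cybb, of which the brighter 2 were both at 1.26 (adjusted p = 0.00400 and 0.00529).

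**Figure D2:**
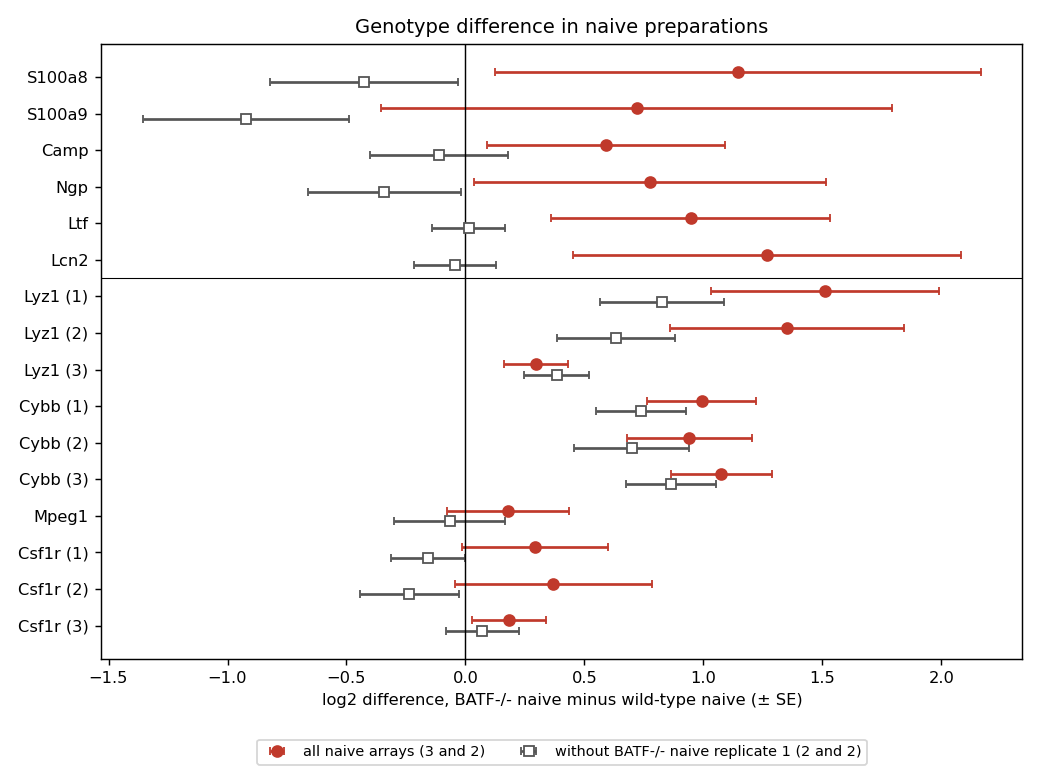
Log2 difference of BATF-/- minus wild-type naive arrays for the 16 probe sets, with all arrays (circles, 3 and 2 arrays) and without BATF-/- naive replicate 1 (open squares, 2 and 2 arrays); bars are standard errors of the limma fit. S100a9 stands at 0.72 with all arrays and at -0.92 without that array, while the 3 Cybb probe sets stand between 0.94 and 1.07 with all arrays and between 0.70 and 0.87 without it.

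Further myeloid gene lists were also high in BATF-/- naive replicate 1. Genes of the primary granules, which early neutrophil precursors (promyelocytes) fill, had the largest excess of the lists compared, a mean of 11.12 log2 in replicate 1, against 6.05 and 7.83 in BATF-/- replicates 2 and 3 and 5.86 and 6.71 in wild-type naive arrays (5 of 7 listed genes measured). Replicate 1 was the highest naive array for 5 of 5. It had 13.25 for the protease gene Prtn3, against 7.04 to 9.82 in the other naive arrays, 11.99 for the protease gene Ctsg, against 5.81 to 8.32, and 12.09 for Mpo, myeloperoxidase, against 6.96 to 9.03. Of the 5, 0 passed between genotypes (median 2.35, and 0.91 without replicate 1). In a list of 13 measured specific and gelatinase granule genes, replicate 1 was highest for 11. Of these 13, 1 was higher in BATF-/- naive preparations, where 0.739% of all probe sets were called. It was Ltb4r1 (0.62, limma, adjusted p = 0.0429), which did not pass without replicate 1 (0.51, adjusted p = 0.0679).

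The arrays came in a different order for primary granules than for the neutrophil members. After replicate 1, the primary granule mean was higher in BATF-/- replicate 3 than in either wild-type array, while the mean of the 6 neutrophil members was 5.67 in BATF-/- replicate 3, against 5.84 and 5.08 in wild-type arrays. Receptor genes of the mature neutrophil list differed from each other. Cxcr2, the chemokine receptor of circulating neutrophils, was dim in all 5 naive arrays (3.09 to 3.93), and Csf3r, the receptor for the growth factor G-CSF, reached 4.83 in replicate 1, against 3.95 to 4.46 in the other naive arrays. Replicate 1 stood further above the others for Trem3, an activating receptor (7.77, against 4.00 to 4.98), Clec4e, the receptor Mincle (5.41, against 3.12 to 3.48), and Fpr2, a formyl peptide receptor (6.47, against 4.63 to 5.12). In the list of 18 measured mature neutrophil genes, 4 were dim in every array and 0 passed between genotypes (median 0.26). Replicate 1 was the highest naive array for 13 of them and the lowest for 1. Clec4d (-0.74, limma, adjusted p = 0.284) and G0s2 (-0.40, adjusted p = 0.531) had negative differences between naive genotypes, while the rest of the list had positive ones.

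Basophil, mast cell and eosinophil genes also stood high in replicate 1. Their mean was 7.46 in replicate 1, against 4.39 and 4.85 in BATF-/- replicates 2 and 3 and 3.89 and 4.12 in wild-type naive arrays, with replicate 1 highest for 6 of 6. Mcpt8, a basophil protease gene, had 9.50 in replicate 1, against 4.00 to 5.55 in the other naive arrays. Fcer1a, the alpha chain of the IgE receptor, had 7.05, against 2.52 to 3.28. Of these 6 genes 0 passed between genotypes with all arrays. Without replicate 1, 2 of the 6 were higher in BATF-/-, Prg2, an eosinophil granule gene (1.49, adjusted p = 0.00482), and Fcer1a (0.75, adjusted p = 0.0453). In that fit 0.915% of all probe sets were called.

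Monocyte and macrophage markers beyond the members were mixed. Replicate 1 was highest for 14 of 23 measured genes, among them F13a1, a clotting factor gene of monocytes, at 10.47 against 6.92 to 8.40 in the other naive arrays. The complement gene C1qa, a marker of resident macrophages, had 6.06, 5.24 and 5.56 in BATF-/- naive arrays, against 6.36 and 6.31 in wild-type naive arrays, so replicate 1 was the highest BATF-/- array but below both wild-type arrays. Of the 23, 2 were higher in BATF-/- naive preparations and 0 were lower, where 0.739% of all probe sets were called. The 2 were the chemokine receptor gene Ccr1 (1.41, adjusted p = 8.0e-05) and Ms4a6d (0.84, adjusted p = 0.0395). Without replicate 1, 2 were higher and 1 was lower, the scavenger receptor gene Cd163 (-0.74, adjusted p = 0.0250), where 0.915% of all were called. In that fit C1qb (-0.96, adjusted p = 0.00332) and Spic (-0.89, adjusted p = 0.00425) were also lower by a probe set that was not their brightest. Another Ccr1 probe set was higher (0.94, adjusted p = 0.0356). Ccr1 was even across the BATF-/- arrays, at 5.92, 5.83 and 5.89 against 4.58 and 4.35 in wild-type arrays, so it did not follow the calprotectin genes. Among 7 measured myeloid transcription factor genes replicate 1 was highest for 6, with Cebpd at 7.13 against 3.96 to 4.94, and 0 passed between naive genotypes.

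CD8 T cell genes moved the other way in the same array. Replicate 1 had the lowest naive value for 10 of 10 measured genes, with a list mean of 11.40, against 11.92 and 11.86 in BATF-/- replicates 2 and 3 and 11.95 and 11.83 in wild-type naive arrays. Cd8a had 11.66 in replicate 1, against 12.19 to 12.39 in the other naive arrays. B cell genes did not set replicate 1 apart, since their mean was 6.71, 6.74 and 7.21 in the BATF-/- arrays, against 6.48 and 6.04 in wild type, and NK cell genes gave 7.18, 7.24 and 7.43 in BATF-/-, against 6.35 and 6.22 in wild type. Those 2 lists were thus higher in every BATF-/- naive array, and 3 of 9 B cell and 2 of 4 NK cell genes passed, where 0.739% of all probe sets did. Without replicate 1, 1 of 9 B cell and 2 of 4 NK cell genes passed, where 0.915% of all did. Erythroid and platelet means were also highest in replicate 1. They were 8.29 for erythroid genes, against 7.32 to 7.84 in the other naive arrays, and 7.70 for platelet genes, against 6.81 to 7.50. Between genotypes 1 of 7 erythroid and 0 of 7 platelet genes passed. The 1 was Alas2 (1.21, limma, adjusted p = 0.0368), whose difference was 1.22 without replicate 1 (adjusted p = 0.0576). What part these cells have in the member values was not tested.

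**Figure D3:**
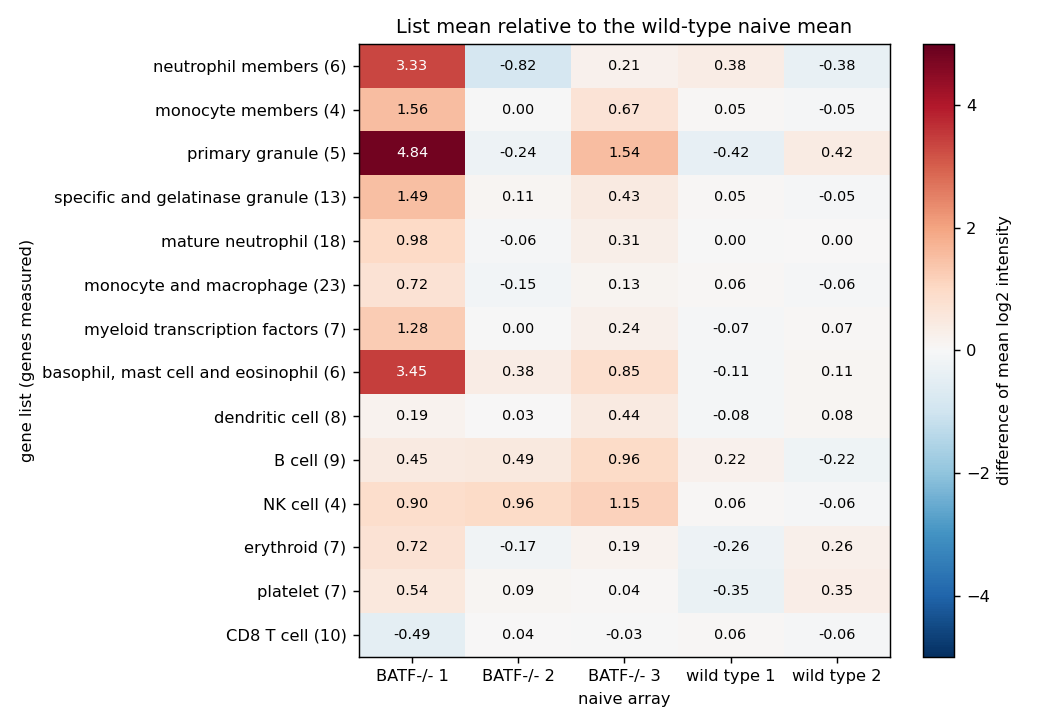
Mean log2 intensity of each gene list (rows, number of measured genes in brackets) in the 5 naive arrays (columns), as the difference from the mean of the wild-type naive arrays, by colour and number. BATF-/- replicate 1 stands at 3.33 for the neutrophil members, 1.56 for the monocyte members, 4.84 for primary granules and -0.49 for CD8 T cells.

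The genes whose values lay closest to the average profile of the neutrophil members over the 13 arrays were Igsf6, Clec4a3, B4galt6, Hp, Nxpe4, Gda, Anxa3 and Cd302, with mean absolute differences of 0.219 to 0.305 log2 between deviations from each probe set's mean over the arrays. Igsf6, the closest, had 7.93, 4.76 and 5.57 in BATF-/- naive arrays, against 4.99 and 4.94 in wild-type naive arrays, and Hp, which codes for the haemoglobin-binding protein haptoglobin, had 10.19, 5.83 and 7.19, against 5.98 and 5.70. Closest to the monocyte members were Slc40a1, Marchf1, Ctsh, Tyrobp, Plbd1, Wdfy4, Cd74 and Slc4a1, at 0.147 to 0.224. Slc40a1, the iron exporter ferroportin, had 8.50, 7.40 and 7.37 in BATF-/- naive arrays, against 7.55 and 7.28 in wild-type naive arrays, and 3.63 to 3.96 in all day 3 arrays. Much of the likeness to the monocyte profile is the shared distance between naive and day 3 arrays.

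After 3 days of stimulation the member RNA was low in both genotypes, and the question is whether any genotype difference persisted. S100a8 had 3.21, 3.61, 3.06 and 3.30 in BATF-/- day 3 arrays, against 3.28, 3.19, 3.25 and 3.54 in wild-type day 3 arrays. Lyz1 (1436996_x_at) had 2.52, 2.57, 2.84 and 2.76 in BATF-/- day 3 arrays, against 2.55, 2.54, 2.45 and 2.63 in wild-type day 3 arrays. Both genes were dim in all 8 arrays, with overlapping genotypes. Mpeg1 had 4.54, 4.47, 4.04 and 4.65 in BATF-/- day 3 arrays, against 4.47, 3.96, 4.41 and 4.16 in wild-type day 3 arrays, again overlapping.

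Between genotypes at day 3, 0 of 16 members passed the limma test, with 0 at an unadjusted p below 0.05, while 0.773% of all probe sets were called. The differences ran from -0.10 for Ltf to 0.17 for Mpeg1, and the lowest adjusted p was 0.843. The mean of the neutrophil members lay between 3.93 and 4.01 in BATF-/- and between 3.96 and 3.99 in wild-type day 3 arrays. That of the monocyte members lay between 3.96 and 4.10 in BATF-/- and between 3.90 and 3.97 in wild-type day 3 arrays.

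The change over 3 days was downward for each member called in either genotype. In BATF-/- cells 13 of 16 probe sets were lower at day 3 than in naive preparations, 4 of 6 neutrophil and 9 of 10 monocyte probe sets, where 19.8% of all probe sets were lower. In wild-type cells 10 of 16 were lower, 2 of 6 and 8 of 10, where 20.8% of all were lower. Without BATF-/- naive replicate 1, whose distance from its group adds to the spread that all groups share in the fit, the wild-type differences were the same and 12 of 16 were lower, 4 of 6 and 8 of 10, where 22.3% of all were. The median difference over the 16 was -3.58 in BATF-/- and -2.59 in wild-type cells, where the medians of all probe sets were 0.04 and 0.03. The naive arrays of each genotype serve both here and in the genotype comparison.

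The largest falls of the members in both genotypes were those of both bright Lyz1 probe sets, Mpeg1 and the brightest Cybb probe set. Lyz1 (1436996_x_at) fell by at least 89.5-fold in BATF-/- cells (log2 -8.16 ± 0.40, adjusted p = 2.11e-09) and by at least 31.4-fold in wild-type cells (-6.77 ± 0.45, adjusted p = 5.17e-08). Mpeg1 fell 60.2-fold in BATF-/- cells (-5.91 ± 0.21, adjusted p = 9.69e-11) and at least 56.3-fold in wild-type cells (-5.91 ± 0.24, adjusted p = 4.64e-10). The 3 Cybb probe sets fell in both genotypes, the brightest by at least 33.1-fold in BATF-/- and at least 16.6-fold in wild-type cells. At day 3 Cybb was dim in all 8 arrays by each of its probe sets.

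Csf1r kept signal above the dim limit in every day 3 array. The probe set 1419872_at had 4.98, 4.50, 4.95 and 4.77 in BATF-/- day 3 arrays, against 4.68, 4.85, 4.45 and 4.68 in wild-type day 3 arrays, and it fell 16.6-fold in BATF-/- (adjusted p = 4.45e-07) and 14.1-fold in wild-type cells (adjusted p = 2.76e-06). The other 2 probe sets were brighter than it at day 3, at 5.25 to 6.23, and fell less, by 1.40 and 0.52 log2 in BATF-/- cells. In wild-type cells 1419873_s_at fell by 1.26 log2, and 1423593_a_at was at -0.28 without passing (adjusted p = 0.150). The probe sets of Csf1r therefore disagreed in the size of the fall, not in its direction.

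Among the neutrophil genes, S100a8 and S100a9 fell in both genotypes. S100a8 fell by at least 8.91-fold in BATF-/- (-4.21 ± 0.85, adjusted p = 0.00120) and by at least 4.03-fold in wild-type cells (-3.05 ± 0.97, adjusted p = 0.0223). S100a9 fell by at least 11.5-fold in BATF-/- (-4.23 ± 0.90, adjusted p = 0.00168) and by at least 7.0-fold in wild-type cells (-3.51 ± 1.02, adjusted p = 0.0134). Both wild-type calls were lost without wild-type naive replicate 1, the one with more calprotectin RNA (adjusted p = 0.163 and 0.115), where the spread of the lone wild-type naive array is again taken from the other groups.

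Without BATF-/- naive replicate 1, the falls of these genes in BATF-/- cells were smaller but still called, at -2.64 for S100a8 (adjusted p = 3.18e-05) and -2.59 for S100a9 (adjusted p = 8.66e-05).

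The secondary granule genes had smaller differences than calprotectin. Ngp fell 4.24-fold in BATF-/- cells (-2.08 ± 0.62, adjusted p = 0.0157) and was at -1.25 ± 0.70 in wild-type cells (adjusted p = 0.187). Ltf fell by at least 2.44-fold in BATF-/- cells (-1.34 ± 0.49, adjusted p = 0.0440), a call lost without any 1 of the wild-type naive, wild-type day 3 or BATF-/- day 3 arrays (adjusted p = 0.0525 to 0.0855), and was at -0.30 in wild-type cells (adjusted p = 0.722). Without BATF-/- naive replicate 1 the differences in BATF-/- cells were -0.96 for Ngp and -0.41 for Ltf, and both passed. In the same fit Ngp also passed in wild-type cells (-1.25, adjusted p = 0.00243), while Ltf did not (adjusted p = 0.0939). Camp did not pass in either genotype (-1.03 and -0.43) and kept a steady signal at day 3, with 5.26, 5.06, 5.13 and 5.22 in BATF-/- arrays, against 5.21, 5.24, 5.34 and 4.94 in wild-type arrays. Those day 3 values lie above the naive value of BATF-/- replicate 2 (4.86), so Camp had no more RNA signal in that naive array than in cultured cells. Lcn2 was dim at day 3 in all 8 arrays and did not pass in either genotype with all arrays, but was called lower in wild-type cells without BATF-/- naive replicate 1 (-0.40, adjusted p = 0.0466).

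Whether the fall differed between genotypes was tested directly by the interaction, which called 0 of 16 members, where 0.306% of all probe sets were called. By limma 4 of the 16 had an unadjusted p below 0.05, all of them monocyte probe sets. The share of all probe sets at that unadjusted level was not counted here either. The differences of the 2 falls were -1.39 ± 0.61 for the brightest Lyz1 probe set (adjusted p = 0.419), -1.03 ± 0.29 for the brightest Cybb probe set (adjusted p = 0.190) and -0.0028 for Mpeg1, with S100a8 at -1.16 ± 1.29 (adjusted p = 0.807). Without BATF-/- naive replicate 2 the interaction called 3 of 16, where 1.18% of all probe sets were called, and without replicate 1 it called 0, where 0.575% were.

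Related lists differed in how many of their genes were lower at day 3. Of all probe sets 19.8% were lower in BATF-/- and 20.8% in wild-type cells, and 22.3% in wild-type cells without BATF-/- naive replicate 1. Of 5 primary granule genes, 5 were lower at day 3 in BATF-/- and 2 in wild-type cells, and without BATF-/- naive replicate 1 all 5 were lower in both, with the wild-type median at -2.55 in both fits. Of 23 monocyte and macrophage genes 17 were lower in BATF-/- and 16 in wild-type cells. Of 13 specific and gelatinase granule genes, 5 were lower and 1 higher in BATF-/- cells (median -0.37). In wild-type cells 0 of these were lower and 2 higher (median -0.05), and 2 were lower without BATF-/- naive replicate 1. Of 18 mature neutrophil genes 10 were lower in BATF-/- and 4 in wild-type cells, with list medians of -0.54 and -0.27. Of 10 CD8 T cell genes 3 were lower and 1 higher in BATF-/- cells, and 4 were lower in wild-type cells, with list medians of 0.00 and -0.18. Without BATF-/- naive replicate 1, 5 were lower in each genotype and 1 was higher in BATF-/- cells. Not all myeloid-associated genes fell, since Gfi1 and Irf8, transcription factor genes that activated T cells also express, rose in both genotypes (Gfi1 by 1.21 in BATF-/- and 1.41 in wild-type cells, Irf8 by 0.95 and 1.22).

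**Figure D4:**
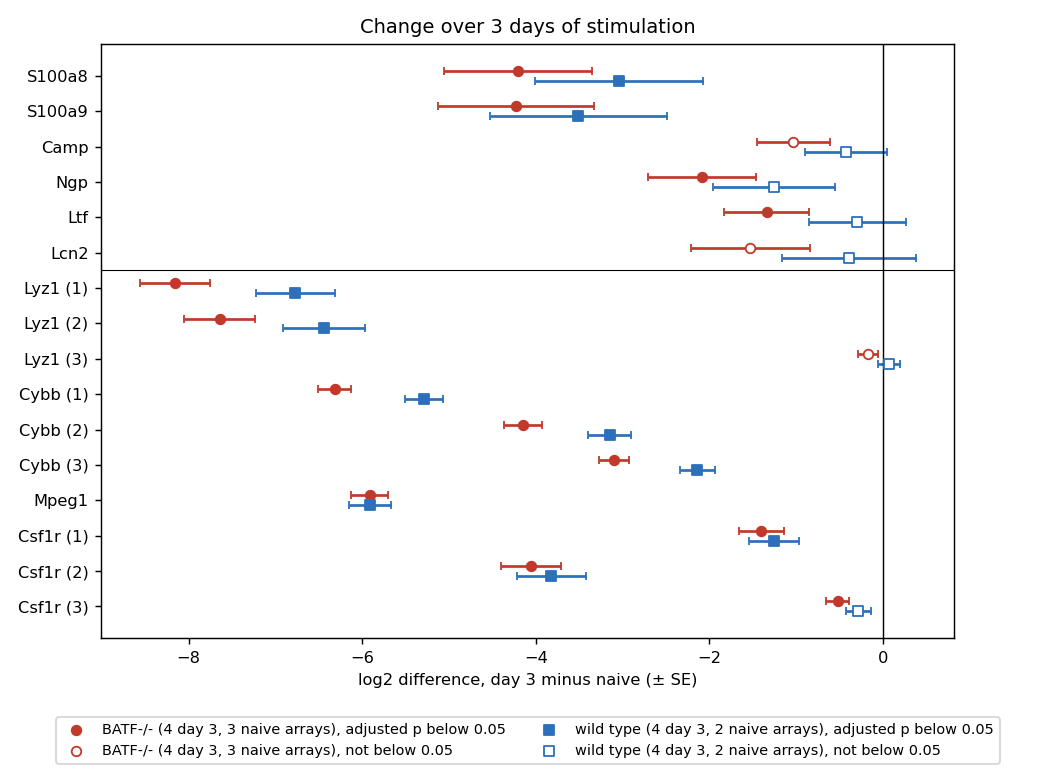
Log2 difference of day 3 minus naive arrays for the 16 probe sets in BATF-/- cells (circles, 4 and 3 arrays) and wild-type cells (squares, 4 and 2 arrays); bars are standard errors of the limma fit, and filled symbols have an adjusted p below 0.05. Filled symbols lie left of 0 throughout, from -0.52 for a Csf1r probe set to -8.16 for Lyz1, and the open ones include both values of Camp and Lcn2.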

How the data were processed

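RNA of 13 preparations of CD8+ T cells was measured on 1-colour oligonucleotide arrays labelled with biotin. The deposited values are probe set intensities on a linear scale, which the authors computed with RMA according to the processing notes of the submitters. This method subtracts background, brings arrays to a common distribution and summarises the probes of a set, and its version is not given in the sources used here. Precision is limited by the number of arrays.

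The deposited intensities were converted to log2 here and not normalised again. Of 45101 probe sets, 64 controls were left out. Of the 45037 tested, 34945 have 1 gene in the platform annotation, 932 several and 9160 none, and names come from those with 1. The 4 group means were fitted with limma 3.58.1 in R 4.3.3 on all 13 arrays, with eBayes (9 residual and 4.42 prior degrees of freedom), 5 contrasts, two-sided tests and Benjamini-Hochberg adjustment over all 45037. An adjusted p below 0.05 counts as passed. Gene lists use the brightest probe set of each of their genes, with p-values from the same fit. In simulated data 100% of changes of 2 log2 and 95% of 1 log2 among 200 changed probe sets were recovered for the naive comparison. Those probe sets were picked at random from all tested. The shares therefore do not tell how often a change in a member with a wide spread would be called. S100a8, for example, had a standard error of 1.02 in that comparison. Named genes other than members and list genes are the 8 whose profile is closest to that of the neutrophil and of the monocyte members. The members, lists and tests were chosen with earlier results of these data known. Alternatives were other normalisations, a filter on dim probe sets, values per gene, other eBayes priors, array weights, a replicate block, the compared groups alone and leaving out each array. No pair of arrays was a copy of another. Replicate numbers are shared between groups, and deviations of same-numbered arrays correlated between -0.20 and 0.05, so the numbers were not taken to pair samples.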

Additional observations from a re-analysis of the deposited data

Results flagged for a closer look

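In 3 of 32 sets of 4 day 3 arrays, the gap of 1 array to the next exceeded 0.829 of the range of the set. Chance alone gives about 1 in 20. The rule is relative, so a small gap is flagged where the other 3 arrays lie close together. Ngp had 4.64 log2 in wild-type day 3 replicate 4, against 4.35 to 4.38 in the other wild-type day 3 arrays. The dim Lyz1 probe set (1450822_at) had 3.56 in BATF-/- day 3 replicate 3, against 3.48 to 3.49 in the other BATF-/- day 3 arrays, and 3.38 in wild-type day 3 replicate 1, against 3.48 in each of the other wild-type day 3 arrays. The naive groups hold fewer than 4 arrays and could not be examined in this way.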

How the results depend on the processing

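The naive comparison called 1 of 16 members. It called 0 with the brightest probe set of each gene, with the compared groups alone and with the replicate number as a block, and 0 to 5 when an array was left out, 5 being without BATF-/- naive replicate 2. The Cybb call (1436779_at) had adjusted p = 0.0912 with the block, 0.0610 with array quality weights, 0.523 with the compared groups alone and 0.0514 to 0.194 in the fits without 1 array that lost it. When an array was left out, the naive difference ranged from -0.43 to 2.30 for S100a8, -0.92 to 1.94 for S100a9, -0.11 to 1.26 for Camp, -0.34 to 1.62 for Ngp, -0.044 to 2.01 for Lcn2, -0.066 to 0.46 for Mpeg1, and -0.16 to 0.61 and -0.24 to 0.82 for 2 Csf1r probe sets. Each lower end was without BATF-/- naive replicate 1 and each upper end without replicate 2. S100a9 also turned negative with array quality weights (-0.061), where replicate 1 had the lowest weight, 0.258. Over all probe sets the naive comparison called 333, against 2 with the compared groups alone, 142 with the block, 662 with array weights, 412 without replicate 1 and 1623 without replicate 2. The fall to day 3 counted 13 members in BATF-/- and 10 in wild type, with 12 to 15 and 8 to 12 when an array was left out, and 8 and 6 of 10 genes by either the brightest or the mean of all probe sets. The interaction called 0, or 0 to 3 when an array was left out, 3 being without BATF-/- naive replicate 2. The day 3 genotype comparison called 0 throughout. Causes of these shifts were not tested.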
